A study of Homo sapiens with 6 samples.

Results

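RN7SL1, RN7SL2, RN7SK, RMRP and RPPH1 are the genes for 5 abundant structural RNAs, and they were read as every row of the deposited tables that carries one of these names. They gave 6 rows of the 58870 in the tables, because RMRP is listed on 2 rows. The 5 genes were chosen from the values described here, for their high abundance in TPM, a level per length of transcript that sums to the same total in every library, and for the question of how much of the lower TPM of other genes in T-MGM cells goes with their share. Their own levels and differences are therefore given as a description, without a test. The cells were WM164, an established human melanoma line, and all 6 libraries came from total RNA. In 3 libraries the cells overexpressed GFP, a fluorescent protein used as the control, and in 3 they overexpressed T-MGM. The labels do not spell out the name T-MGM, and the study's methods describe a tethered MAFG and MITF dimer expressed from a lentiviral vector. The labels name neither clones, cultures nor batches, so the spread between the 3 libraries of a group may be technical.

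These RNAs are short, highly structured and made by RNA polymerase III (Pol III), and they work as RNA rather than as messages. RN7SL1 and RN7SL2 encode 7SL, the RNA scaffold of the signal recognition particle (SRP) that brings ribosomes making secreted and membrane proteins to the endoplasmic reticulum. RN7SK encodes 7SK, which holds the elongation kinase P-TEFb in an inactive particle. RMRP and RPPH1 encode the RNA parts of RNase MRP and RNase P, which process ribosomal RNA and the 5′ ends of transfer RNAs. Such RNAs are not polyadenylated, so a library from total RNA can hold many of their fragments.

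In GENCODE 44 (GRCh38), RN7SL1 is annotated at chr14:49586580-49586878 on the plus strand, RN7SL2 at chr14:49862550-49862849 on the minus strand, RN7SK at chr6:52995621-52995948 on the plus strand, RMRP at chr9:35657754-35658017 on the minus strand and RPPH1 at chr14:20343075-20343407 on the minus strand. Each is a single exon of 264 to 333 nucleotides. RN7SL1 overlaps RPS29, a ribosomal protein gene on the opposite strand. The sources differ on whether the libraries kept the strand, so reads of that overlap may not be told apart. RN7SL2, RN7SK and RPPH1 each overlap a further annotated gene on their own strand, whose reads could not be told apart in a stranded library either.

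RN7SL1 and RN7SL2 are near-identical copies, and RN7SL3 is a further copy of 299 nucleotides. A read from a stretch that the copies share cannot be placed on either of them by sequence alone, and the level of each copy is partly an estimate.

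RN7SL1 was the most abundant row of the TPM table and the row that rose most in TPM units. It held 136162, 138058 and 134141 TPM in GFP replicates 1 to 3, and 160751, 158142 and 161371 TPM in T-MGM replicates 1 to 3. All T-MGM libraries lay above all GFP libraries, with means of 136120 ± 1959 and 160088 ± 1713 TPM (SD, n = 3 each). The difference was 0.23 on the log2(TPM + 1) scale (SE 0.03, limma). In counts divided by the DESeq2 size factor of each library (normalised counts), RN7SL1 went from 672873 ± 16613 to 895096 ± 43238, a log2 fold change of 0.41 (SE 0.05). T-MGM replicate 2 was the lowest of its group at 845375 normalised counts, still above the highest GFP library at 689552.

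RN7SL2 encodes the same RNA but did not share that difference in TPM. Its libraries held 53436, 53793 and 52362 TPM with GFP and 53004, 52865 and 53408 TPM with T-MGM, so that the groups overlapped. The log2 TPM difference was -0.0027 (SE 0.02). In normalised counts the groups did not overlap, with 258596 to 271155 in GFP and 285272 to 308579 in T-MGM, and the log2 fold change was 0.17 (SE 0.04).

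The count ratio of RN7SL1 to RN7SL2 set the groups apart more tightly than either level did. The GFP libraries gave 2.52, 2.54 and 2.54, and those with T-MGM gave 3.01, 2.96 and 2.99. The ratio does not depend on how a library is scaled. It does depend on the estimated split of shared reads between the copies, whose part was not tested. RN7SL1, RN7SL2 and RN7SL3 taken as 1 sum, which does not need that split, went from 955424 ± 23407 to 1213394 ± 56643 normalised counts, a log2 ratio of 0.34. In TPM the sum went from 192784 ± 2750 to 216535 ± 1991, a log2 ratio of 0.17, and on both scales every T-MGM library was above every GFP library.

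RN7SK, the 7SK RNA, differed by about as much as RN7SL1. With GFP its TPM was 25415, 25967 and 26098, and with T-MGM 30249, 29133 and 30512, without overlap. The log2 TPM difference was 0.21 (SE 0.03) and the log2 fold change in counts was 0.39 (SE 0.05). T-MGM replicate 2 was again the lowest of its group, at 199474 normalised counts against 218586 and 222172. The count ratio of RN7SL1 to RN7SK was 4.13 ± 0.0940 in GFP and 4.20 ± 0.0400 in T-MGM, with overlapping libraries, so these RNAs kept nearly the same proportion.

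RMRP, the RNA of RNase MRP, had 40079, 38222 and 39714 TPM with GFP and 36417, 40211 and 37420 TPM with T-MGM. The groups overlapped, and T-MGM replicate 2, low for the RNAs above, was the highest of all 6 libraries here. The log2 TPM difference was -0.05 (SE 0.04). In normalised counts the T-MGM libraries, at 144273, 146845 and 148174, were all above the GFP libraries, at 131782 to 135903, and the log2 fold change of 0.13 had the smallest error of the 5 genes (SE 0.01). The second RMRP row, annotated as a long intergenic RNA and not found in GENCODE 44, held 288 ± 46.3 and 305 ± 49.8 TPM, and its groups overlapped. It was added to the sums below.

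RPPH1, the RNA of RNase P, had 15829, 16412 and 15980 TPM with GFP and 16377, 14943 and 15761 TPM with T-MGM. It was the only one of the 5 whose groups overlapped on both scales. Its log2 TPM difference was -0.04 (SE 0.04) and its log2 fold change in counts 0.14 (SE 0.07), with T-MGM replicate 2 inside the GFP range at 106280 normalised counts. The count ratio of RMRP to RPPH1 was 1.27 ± 0.0483 and 1.27 ± 0.105, and the ratio of RN7SK to RMRP went from 1.22 ± 0.0365 to 1.46 ± 0.0863 with no overlap. RN7SL1 to RMRP likewise went from 5.03 ± 0.172 to 6.11 ± 0.314.

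**Figure D1:**
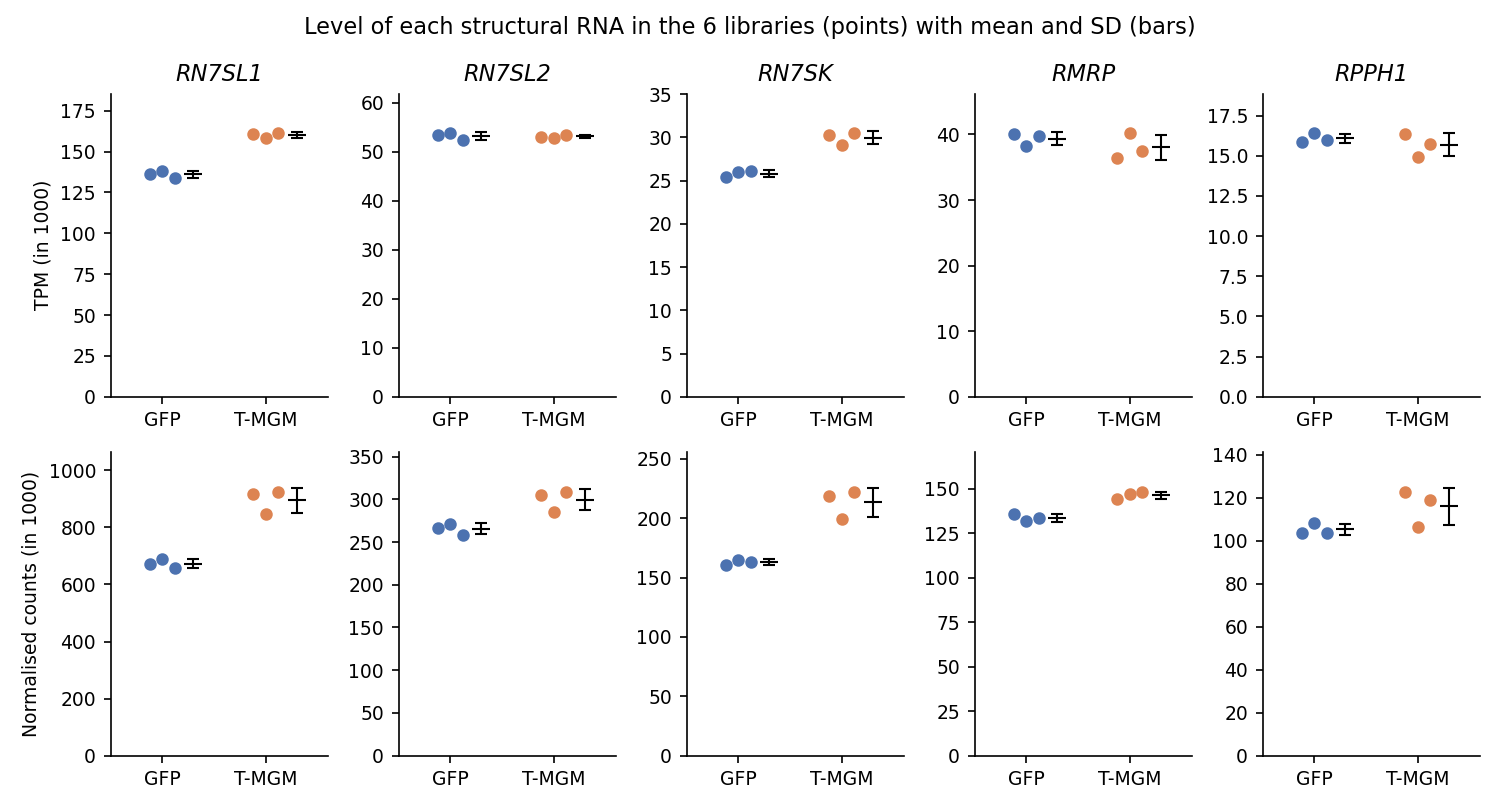
Level of each structural RNA in TPM (upper panels) and in normalised counts (lower panels), on linear axes from 0. Points are libraries in replicate order, and the bar beside them is the mean and SD of the 3 libraries. RN7SL1 and RN7SK lie higher with T-MGM on both scales, RN7SL2 and RMRP in normalised counts alone, and RPPH1 overlaps on both.

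For 2 of the 5 genes all T-MGM libraries were above all GFP libraries in TPM, where 11.7% of the 13674 rows tested in TPM did the same and 40.2% lay wholly below, and for 4 of 5 in normalised counts, where 23.4% of the 19135 rows tested did. None was over 2-fold, which 4.63% of rows tested in counts and 0.973% in TPM were while also passing the test. Because the genes were chosen from this contrast, nothing is read from those counts. RN7SL2, RMRP and RPPH1 were higher in counts but had no settled direction in TPM, where their groups overlapped and RN7SL2 turned from -0.0027 to 0.0053 without GFP replicate 2. TPM placed most rows lower in T-MGM. Among 12627 other genes with a mean normalised count of at least 50, the median log2 TPM difference was -0.15, against -0.01 after DESeq2 size factors. Relative to that median, RN7SL1 was 0.39 higher in TPM, RN7SK 0.37, RN7SL2 0.15, RPPH1 0.12 and RMRP 0.10 (log2). Relative to the median in counts the same genes were 0.42, 0.40, 0.18, 0.15 and 0.14 higher. Both scales put all 5 above the median gene and in the same order. The scales come from the same reads, so their agreement is not separate support.

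The 5 genes together filled a large part of the TPM scale. With GFP their share of summed TPM was 27.1%, 27.3% and 26.9%, and with T-MGM 29.7%, 29.6% and 29.9%. The groups did not overlap, and the means of 27.1 ± 0.209% and 29.7 ± 0.155% were 2.63 percentage points apart. Without RN7SL1 the share was 13.5% and 13.7%, so that RN7SL1 carried 2.40 points of the difference and RN7SK 0.414 points. In counts the same rows held 3.19 ± 0.0631% and 3.84 ± 0.167%, a difference of 0.642 points.

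**Figure D2:**
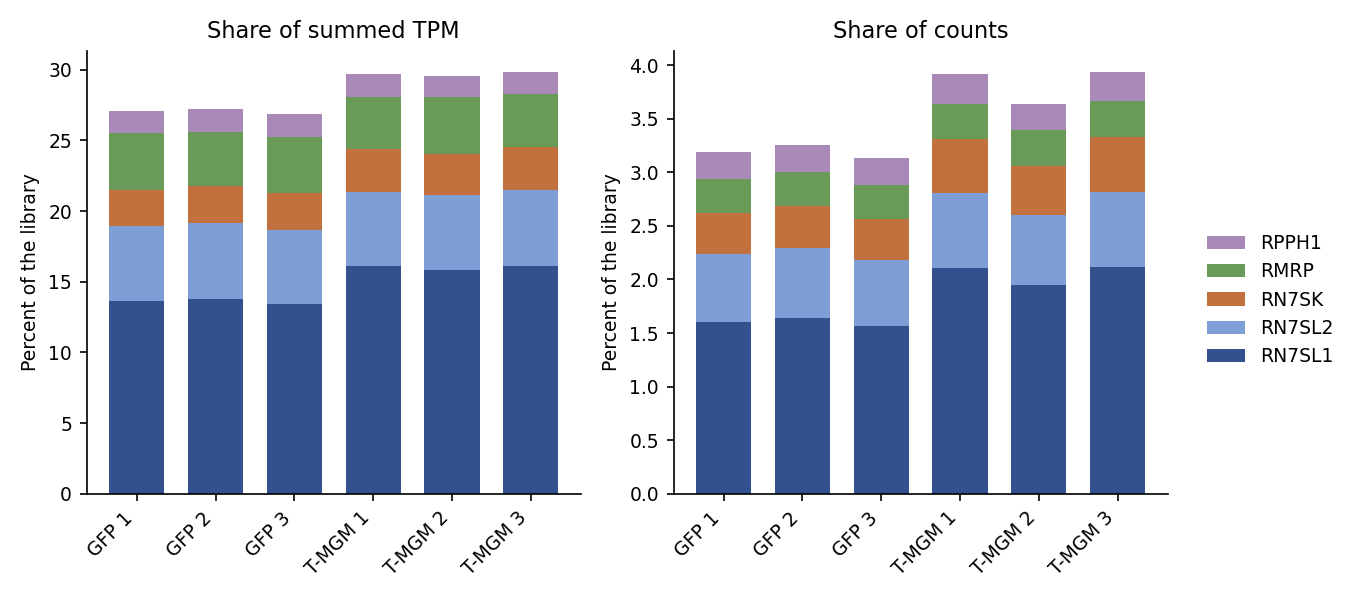
Share of each library held by the 5 structural RNAs, stacked by gene, in percent of summed TPM (left) and percent of counts (right), with both axes starting at 0 and differing in range. The stack reaches 26.9% to 27.3% of TPM with GFP and 29.6% to 29.9% with T-MGM, and the darkest block, RN7SL1, makes up most of the step.

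A small part of the counts became a large part of the TPM because TPM divides counts by effective length, the number of positions in a transcript where a sequenced fragment can start. Implied lengths were set on the scale of 188 long genes with a single annotated transcript. The length implied by the deposited values was 100 to 106 nucleotides for RN7SL1, whose transcript has 299. It was 101 to 107 of 300 for RN7SL2, 129 to 135 of 328 for RN7SK, 134 to 140 of 333 for RPPH1 and 68.6 to 74.0 of 264 for RMRP. RMRP, the shortest transcript, kept 26% to 28% of its length, and the others kept 33.6% to 42%. As a result, the TPM given by the same count was 31.8 to 34.3 times as high for RMRP as for the median of 11384 protein-coding genes. The same factor was 22.1 to 23.4 for RN7SL1, 21.9 to 23.2 for RN7SL2, 17.4 to 18.3 for RN7SK and 16.8 to 17.6 for RPPH1. With counts divided by the annotated length in place of the effective length, the 5 genes held 21.4 ± 0.343% with GFP and 24.1 ± 0.687% with T-MGM, so the groups stayed apart at a lower level.

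**Figure D3:**
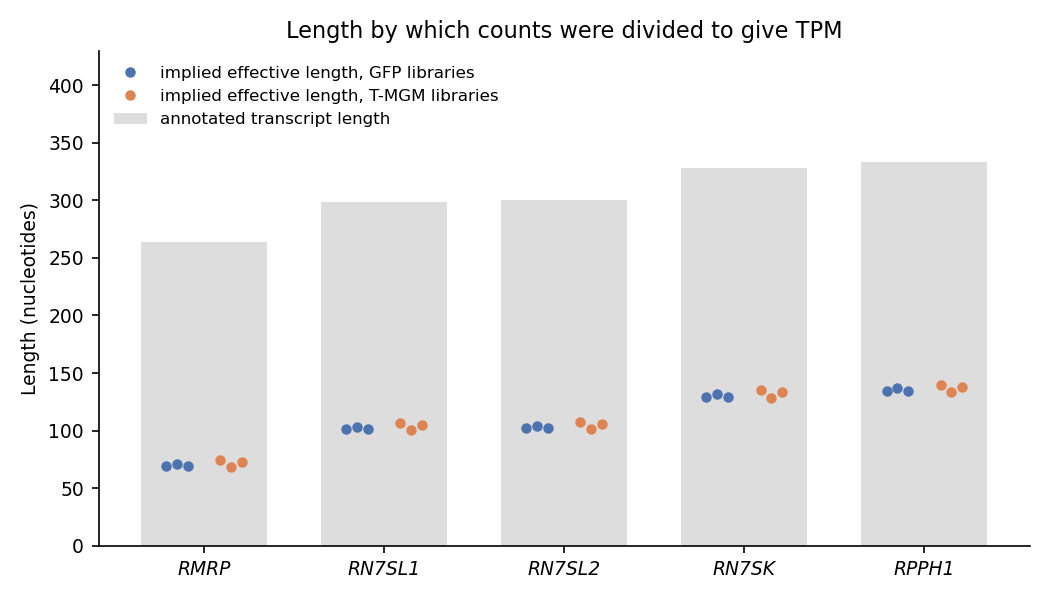
Annotated transcript length (grey bars, nucleotides, from 0) and the effective length implied by counts and TPM in each library (points). In all 6 libraries the implied length lies far under the annotated one, between 68.6 nucleotides for RMRP and 140 for RPPH1.

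The order of the 5 genes changed with the unit. Per length, in TPM, it was RN7SL1, RN7SL2, RMRP, RN7SK and RPPH1 in both groups, and no neighbouring pair overlapped within a group. In counts, which are not set against length, RN7SK stood above RMRP in every library. All 5 were among the 8 most abundant rows in TPM, beside MT-ATP8, MT-CO1 and MT-CO2, mitochondrial genes for a subunit of ATP synthase and subunits of cytochrome oxidase. MT-ATP8, second to RN7SL1, went the other way, from 77981 ± 1552 to 71069 ± 2307 TPM, the largest fall of any row in TPM units, and the mean of RMRP fell by 1322 TPM with overlapping groups. MT-ATP6, another ATP synthase subunit (12618 to 12260 TPM), and SNORA22, a small nucleolar RNA (11400 to 10824 TPM), completed the 10 most abundant. Among single rows, RN7SL1 and RN7SK rose most, by 23968 and 4138 TPM. The largest rises after them were those of MT2A, a metallothionein (2120 TPM), and of RNA5-8SN1 and RF00002, rows of 5.8S ribosomal RNA with equal values (1553 TPM). RNA5-8SN2 and RNA5-8SN3 were also among the rows of repeated genes with equal values. The 12 ribosomal RNA rows together rose by 0.621 points of TPM, more than the 0.414 points of RN7SK. Next in order, SNORA73A fell by 771 TPM, MT-CO1 fell by 738 TPM and SNORA63 fell by 619 TPM, the last being listed at 0 in T-MGM replicate 2.

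How much of the lower TPM of other genes goes with the 5 genes is a matter of arithmetic. All other rows together held 72.9% of TPM with GFP and 70.3% with T-MGM, a ratio of 0.964. Leaving the 5 genes out and rescaling each library therefore raised the log2 difference of every other row by about the same 0.05. The median over the 12627 genes moved from -0.15 to -0.10, and 34.5% of it was removed. The share of these genes with a lower mean in T-MGM went from 70.9% to 64.3%. In the T-MGM libraries the median relative to the GFP mean was -0.14, -0.13 and -0.17 before and -0.09, -0.08 and -0.11 after, while the GFP libraries stayed between -0.0090 and 0.0086. The T-MGM libraries remained below all GFP libraries after the 5 genes were left out.

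RN7SL1 alone removed 26.4% of the median difference and RN7SK alone 4.0%. RN7SL2, RMRP and RPPH1, whose groups overlapped in TPM, left it where it was or made it slightly larger, with -0.10%, -1.3% and -0.36% removed. The scale of the effect followed the rise in TPM units and not the abundance of the gene, as RN7SL2 and RMRP were each more abundant than RN7SK.

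**Figure D4:**
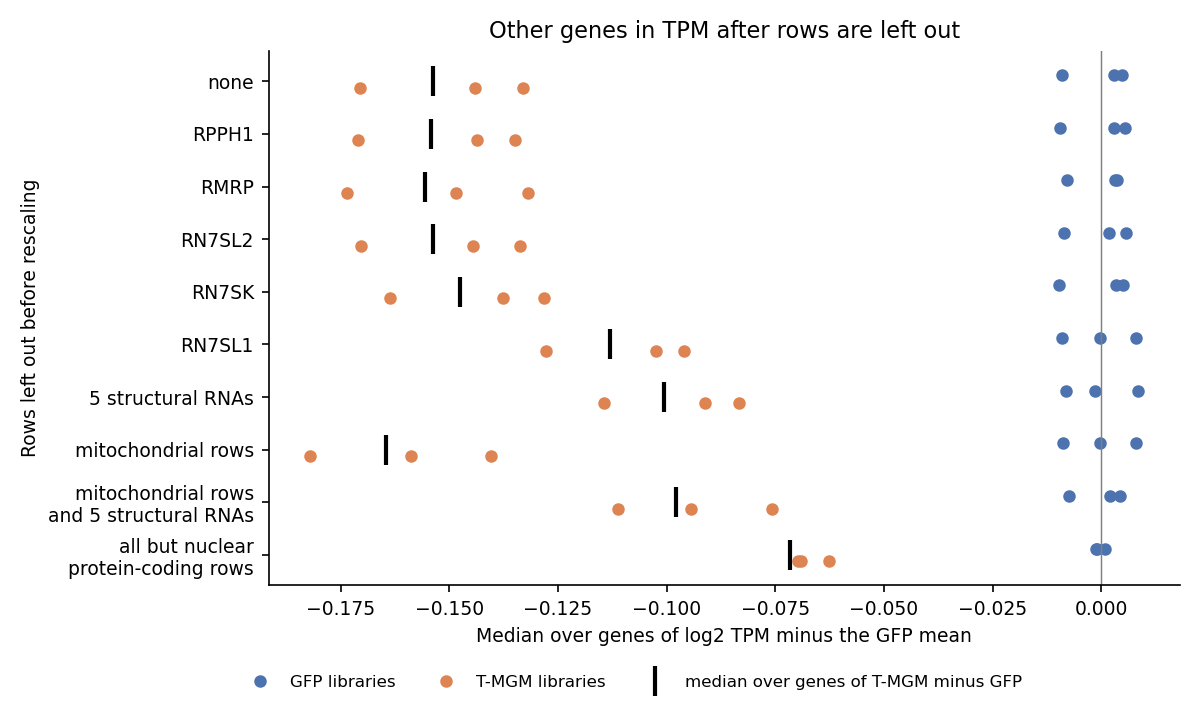
Median log2 TPM of other genes relative to the GFP mean in each library (points), and the median difference between groups (black ticks), after the rows named on the left axis were left out and each library was rescaled. The T-MGM points move from about -0.15 towards 0 when RN7SL1 or the 5 structural RNAs are left out, and away from 0 when the mitochondrial rows alone are.

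Other short RNAs of the kinds tried here changed the result little. Ribosomal RNA rows, at 3.15% of TPM with GFP and 3.77% with T-MGM, were not left out on their own. Leaving out the 971 further 7SL and 7SK copies, other Pol III RNAs and small nuclear and nucleolar RNAs along with the 5 genes removed 37.2%. Leaving out the mitochondrial rows alone raised the difference to -0.16, because their share fell from 19.6% to 19.0% of TPM. Keeping only nuclear protein-coding rows gave -0.07, with 53.4% removed. With counts scaled by the library total (CPM) in place of TPM the median difference was -0.06, and -0.05 when the 5 genes were also left out of the total. The larger part of the distance to the -0.01 of DESeq2 size factors thus lay outside these 5 rows.

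The same step changed the number of rows that passed. On TPM, limma passed 5514 of 13674 rows (40.3%, Benjamini-Hochberg adjusted p at or under 0.05), of which 1154 were higher (8.44% of rows tested) and 4360 lower (31.9%) in T-MGM, so that 20.9% of the passing rows were higher. With the 5 genes left out and the rest rescaled it passed 4826 of 14406, of which 1455 were higher and 3371 lower (30.1% higher). DESeq2 on the counts passed 38.4% of rows tested, with 3675 in each direction (50% higher), and 38.7% were higher when total counts were used for scaling. Leaving the 5 genes out of the count table changed its number of passing rows from 7350 to 7342.

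Base composition moved with the comparison over all genes. The 5 transcripts had GC contents of 58.2% to 64.6%, above 82.2% to 96.4% of 12613 expressed genes. The median log2 fold change in counts ran from -0.16 in the decile of genes lowest in GC to 0.15 in the highest. RN7SL2, RMRP and RPPH1, at 0.17, 0.13 and 0.14, lay near that median of the highest decile, and RN7SL1 at 0.41 lay above it. RN7SK at 0.39 has a GC content in the next lower decile and lay above the median of 0.14 there. In TPM the medians ran from -0.30 to -0.0016 across the deciles, a spread that a rescaling by the 5 genes cannot change, since it moves every row alike. By transcript length the median in counts ran from 0.07 in the shortest decile to -0.05 in the longest. The part of GC content and length in the values of the 5 genes was not tested.

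Sequence around the start of RN7SK is shown because RN7SK was higher with T-MGM while RMRP and RPPH1, which have the same kind of upstream Pol III promoter, overlapped between the groups in TPM. The stretch runs from 250 bases before to 50 bases from the start of the gene in hg38, in the direction of transcription, and lies at chr6:52995371-52995670 on the plus strand. Capitals mark matches, on either strand, to TATAA (the TATA box core), CACGTG (an E-box), CATGTG (the M-box core bound by MITF), TGCTGA (a core of the Maf recognition element) and TGACGTCA (the cyclic AMP response element).
RN7SK: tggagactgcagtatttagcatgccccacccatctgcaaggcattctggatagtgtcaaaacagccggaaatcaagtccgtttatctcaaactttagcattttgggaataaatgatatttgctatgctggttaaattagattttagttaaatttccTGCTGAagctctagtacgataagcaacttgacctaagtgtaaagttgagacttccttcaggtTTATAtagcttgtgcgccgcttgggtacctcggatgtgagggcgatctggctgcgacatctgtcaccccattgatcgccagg
Neither CACGTG nor CATGTG was found in this window of RN7SK, RMRP or RPPH1, where 7.26% and 11.1% of 35116 RefSeq promoters of the same length held them. Other forms of the E-box were not searched for. Nor was the AP-1 motif, which the study found most strongly enriched at sites bound by both MAFG and MITF. TGCTGA was found once each at RN7SK, with its first base at -94, and at RMRP, with its first base at 6, past the start. It was held by 17.3% of all promoters. TGACGTCA lay at RPPH1, with its first base at -221, and was held by 1.85%. TATAA lay at RN7SK, RMRP and RPPH1, with first bases from -35 to -32, and was held by 20.4%. These matches describe the letters in the window.

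The genes for proteins that work with these RNAs moved in both directions. Of 64 genes for their protein partners and for Pol III, none was over 2-fold, 11 passed the DESeq2 test higher and 24 lower in T-MGM, and 29 did not pass. With total counts for scaling 6 passed higher and 31 lower. The background was 19.2% passing in each direction among all rows tested. The median log2 fold change of the 64 genes was -0.05, and that of all rows tested was -0.0027. All values below are log2 fold changes in counts with DESeq2 adjusted p.

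Of 8 genes for SRP proteins and the SRP receptor, 1 passed higher, 3 lower and 4 did not pass. SRP72, a subunit of the particle that binds 7SL, fell by 0.16 (adjusted p of 1.38e-10), from 9171 ± 283 to 8226 ± 79.9 normalised counts. SRP54, which binds the signal peptide, fell by 0.23 (adjusted p of 5.93e-07), and SRP19, which binds 7SL during assembly, fell by 0.30 (adjusted p of 2.06e-08). In each of these 3 genes every T-MGM library was below every GFP library, opposite to the sum of the 7SL copies. SRPRA, the receptor on the endoplasmic reticulum, rose by 0.12 (adjusted p of 2.95e-06).

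Of 7 genes for proteins of the 7SK particle, 2 passed higher, 3 lower and 2 did not pass. LARP7, which binds the 3′ end of 7SK and protects it, fell by 0.36 (adjusted p of 8.71e-12), from 1871 ± 115 to 1460 ± 34.1 normalised counts, where RN7SK was 0.39 higher. CCNT1 and CCNT2, the cyclins of P-TEFb, fell by 0.16 (adjusted p of 4.09e-05) and 0.37 (adjusted p of 2.45e-19). CDK9, the kinase of P-TEFb, rose by 0.18 (adjusted p of 0.0182), and MEPCE, which caps 7SK, rose by 0.09 (adjusted p of 0.0177). Neither CDK9 nor MEPCE passed without T-MGM replicate 3 or with total-count scaling. CDK9 was also lost without GFP replicate 1 or T-MGM replicate 2, and MEPCE without GFP replicate 2 or 3 or T-MGM replicate 1.

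Of 11 genes for proteins of RNase P and RNase MRP, which share most subunits, 1 passed higher, 4 lower and 6 did not pass. POP7 fell by 0.29 (adjusted p of 1.79e-07), RPP38 by 0.30 (adjusted p of 0.0149) and RPP30 by 0.17 (adjusted p of 0.0115), and POP5 rose by 0.26 (adjusted p of 0.00404). POP7 passed whichever library was left out. RPP38 was lost without GFP replicate 2, T-MGM replicate 1 or T-MGM replicate 2, RPP30 without GFP replicate 1 or T-MGM replicate 1, and POP5 without GFP replicate 2.

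Of 18 Pol III subunit genes, 4 passed higher, 8 lower and 6 did not pass. POLR3C, POLR3E and POLR3F, subunits found in Pol III alone, fell by 0.55 (adjusted p of 2.40e-21), 0.40 (adjusted p of 1.49e-08) and 0.32 (adjusted p of 4.02e-05). The highest were POLR2L at 0.32 (adjusted p of 1.17e-18), POLR1C at 0.28 (adjusted p of 0.000733) and POLR2E at 0.10 (adjusted p of 0.00379), subunits that Pol III shares with other polymerases. POLR2E did not pass without GFP replicate 3 or with total-count scaling. Of 20 genes for Pol III factors, 3 passed higher, 6 lower and 11 did not pass. SSB, the La protein that binds the ends of new Pol III transcripts, fell by 0.64 (adjusted p of 4.23e-127), from 8602 ± 213 to 5530 ± 177 normalised counts, the largest difference among the 64. GTF3C3 of TFIIIC fell by 0.41 (adjusted p of 2.13e-23) and BDP1 of TFIIIB by 0.32 (adjusted p of 4.18e-29). MAF1, a repressor of Pol III, rose by 0.25 (adjusted p of 8.35e-11), GTF3A, the factor for 5S ribosomal RNA genes, by 0.15 (adjusted p of 1.33e-09) and BRF1 of TFIIIB by 0.17 (adjusted p of 0.0247). BRF1 did not pass without GFP replicate 2, without T-MGM replicate 3 or with total-count scaling.

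**Figure D5:**
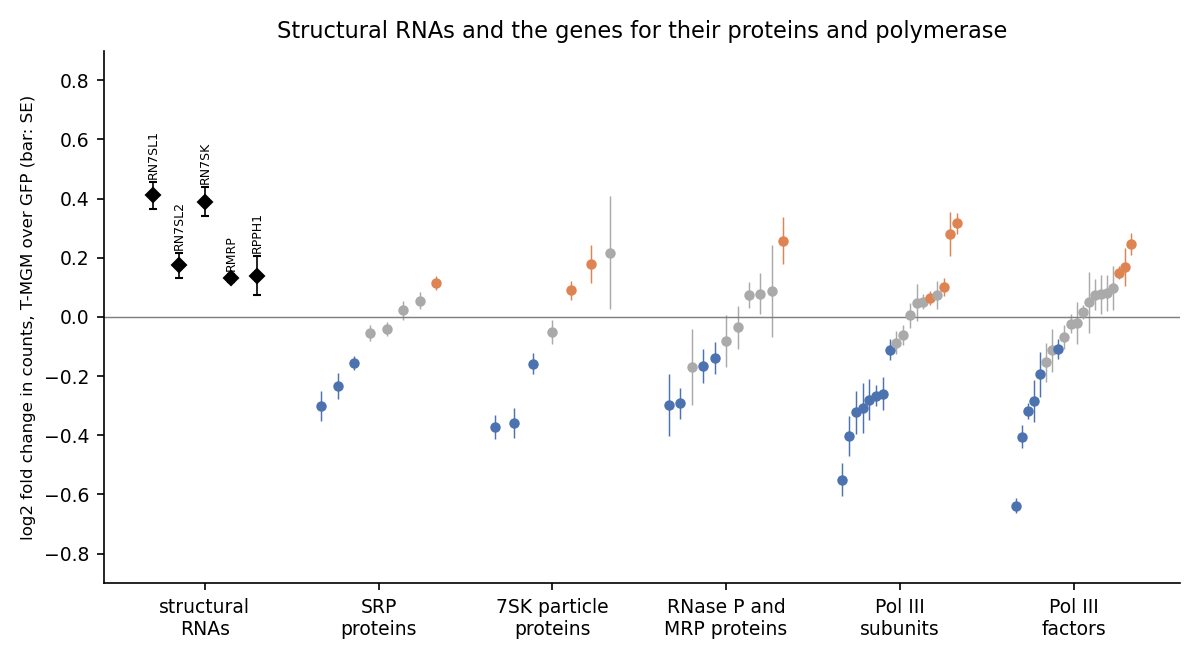
DESeq2 log2 fold change in counts, T-MGM over GFP, for the 5 structural RNAs (black diamonds, no test) and for 64 protein genes in 5 lists (circles), with bars of 1 SE. Orange circles passed higher, blue circles passed lower and grey circles did not pass. All 5 RNAs lie above 0, while each list spans 0 and its median lies between -0.08 and -0.02.

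Other short RNAs of the same kinds were measured too thinly for a firm account. Of 971 rows for 7SL and 7SK copies, 33 could be tested, 2 passed higher and none lower. These were RN7SL5P, which rose by 0.48 (adjusted p of 1.47e-12), and RN7SL3, at 0.13 (adjusted p of 0.0176). RN7SL3 did not pass with total-count scaling, nor without GFP replicate 1 or 3 or T-MGM replicate 1 or 3. RN7SL3 is a near-identical copy, so its reads are not all its own. All copies together held 0.379% and 0.371% of TPM with overlapping groups, a ratio of 0.980 where the median of other genes had 0.899. With these copies added to the structural RNAs, the difference in share of TPM was 2.62 points in place of 2.63. Whether reads moved between these copies and RN7SL1, RN7SL2 or RN7SK was not tested. BCYRN1, a Pol III RNA known from neurons, rose by 0.75 (adjusted p of 4.40e-16), from 3160 ± 173 to 5327 ± 499 normalised counts, and was the 1 of 3 testable rows among 540 other Pol III RNA rows that passed. Among all rows tested 19.2% passed higher, a larger share than among the 33 copies or the small nuclear and nucleolar rows. Of 75 testable small nuclear and nucleolar RNA rows, 9 passed higher and none lower. RNU2-2P at 1.22 (adjusted p of 0.00667), SNORA7B at 0.91 (adjusted p of 0.0112) and SNORA50B at 0.79 (adjusted p of 0.0377) were the highest of them, and all of these were lost when certain libraries were left out, RNU2-2P without GFP replicate 1 or T-MGM replicate 3, SNORA7B without GFP replicate 1 or 3 or T-MGM replicate 1, and SNORA50B without GFP replicate 1 or 3 or T-MGM replicate 1 or 3.

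Among 6066 rows with a mean of at least 10 TPM, the rows closest to the summed 5 genes in log2 TPM over the 6 libraries, each centred on its own mean, were RAB11B, PERP, GPI, RRM2 and CSRP1. Their root mean square distances were 0.0112, 0.0188, 0.0192, 0.0199 and 0.0202 on the log2 scale.

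Library totals ran from 35057239 to 38738065 counts with GFP and from 44577774 to 59250663 with T-MGM, so the T-MGM libraries were deeper throughout. The melanocyte genes MITF, PMEL, MLANA, TYR and SOX10 were present in both groups. In counts SOX10 rose by 0.11 (adjusted p of 4.24e-10), PMEL was at 0.05 (adjusted p of 0.00559), MLANA fell by 0.68 (adjusted p of 4.61e-121) and TYR fell by 0.35 (adjusted p of 6.21e-19). PMEL did not pass without GFP replicate 3 and turned to -0.0025 with total-count scaling. MITF, whose coding sequence is in the construct that the methods describe, rose by 0.08 (adjusted p of 4.80e-07) and did not pass with total-count scaling. PTPRC, PECAM1, EPCAM, KRT5 and ALB, markers of blood, vessel, epithelial and liver cells, were at or near 0 TPM. Fewer cells and less RNA per cell cannot be told apart in these bulk libraries.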

How the data were processed

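Total RNA of WM164 cells was sequenced by the study in 6 libraries as 100-base read pairs. Per the labels, cutadapt 1.8.1, STAR 2.7.7a, RSEM 1.3.0 and DESeq2 were used on GRCh38. The authors deposited 1 table of TPM values, which sum to 1000000 in each library, and 1 table of whole-number counts. The methods describe counting of uniquely aligned reads, but the values go against this. Of 15515 rows examined, 21 in 7 sets of repeated genes had equal counts and equal TPM in all 6 libraries, and the count per TPM of RN7SL1 and RN7SL3 differed by at most 0.0033%. The deposited counts were therefore treated as RSEM expected counts rounded by the authors to whole numbers, which split shared reads between copies. The labels name an unstranded library kit and the methods a strand-specific one.

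Counts were tested with DESeq2 1.42.0 (Wald test, Benjamini-Hochberg adjusted p at or under 0.05, called when also over 2-fold), and TPM with limma 3.58.1 (intensity trend) on log2(TPM + 1) for rows with at least 0.5 TPM in at least 3 libraries. A fold change on that scale understates low rows. The alternatives were edgeR 4.0.16 (quasi-likelihood), other scalings and filters, a pseudocount of 0.1, the replicate number as a block and each replicate left out. With 3 libraries against 3, an exact permutation test of a single value cannot go below p = 0.10 (2-sided), and none was run. The median difference of other genes was taken over genes with a mean normalised count of at least 50. Effective lengths were scaled on genes longer than 1500 nucleotides with a single annotated transcript. These genes had at least 500 counts and at least 5 TPM in every library. Annotation came from GENCODE 44, which matched 58517 of 58870 identifiers (99.4%). The transcript and upstream sequences of the 7SL genes are not reported here. Each test was checked on simulated data, where the planted changes were over 2-fold and so larger than most differences given here. The 5 genes, the gene lists and the alternatives were chosen with earlier results of these data known. Genes were named by fixed rules: the 5 genes, the 10 most abundant rows, the 5 largest rises and falls in TPM, up to 3 highest and 3 lowest passing genes of each list, and the 5 rows most alike. Lists of mitochondrial RNAs, histones and ribosomal proteins are given in the closing section.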

Additional observations from a re-analysis of the deposited data

How the results depend on the processing

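Of 159 alternatives for the main results, 145 were counted as keeping the result, by limits that left room for some movement. With total counts for scaling they include 38.7% of passing rows higher in place of 50%. They also include 6 partner genes passing higher and 31 lower in place of 11 and 24, and RPPH1 at 0.0864 in place of 0.14. The median log2 TPM difference of other genes (-0.15, and -0.10 with the 5 genes left out) was -0.17 and -0.12 for genes with a mean of at least 500 normalised counts, -0.12 and -0.0647 as a mean, -0.0635 and -0.0539 in CPM, and -0.0103 in both with DESeq2 size factors. It was -0.11 with RN7SL1 alone left out and -0.0716 with nuclear protein-coding rows only. Those settings, the leaving out of all short RNAs and the shares by annotated length were partly chosen after seeing the data. The share of the 5 genes differed by 0.642 points in counts in place of 2.63. With total counts for scaling, RN7SL2 was at 0.12, RMRP at 0.0783 and PMEL, a pigment cell gene at 0.05, at -0.0025. The cause was not tested.

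Leaving out each library in turn gave medians of -0.16 to -0.14, or -0.11 to -0.09 with the 5 genes left out, a share difference of 2.52 to 2.72 points, and log2 fold changes of 0.39 to 0.45 for RN7SL1, 0.15 to 0.21 for RN7SL2, 0.36 to 0.44 for RN7SK, 0.12 to 0.14 for RMRP and 0.10 to 0.20 for RPPH1. Of 52 named genes, 13 no longer passed under at least 1 alternative. Libraries with the same replicate number did not deviate together (r of -0.0067, -0.058 and 0.029). With the replicate block 735 genes in place of 885 were called, 6099 in place of 7350 passed, 4904 in place of 5514 passed in TPM, and 26 in place of 35 of the 64 partner genes passed. Under the block CDK9, MEPCE, RPP38, RPP30, BRF1, RN7SL3, SNORA7B and SNORA50B no longer passed. The median difference was then -0.15, or -0.0988 with the 5 genes left out.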

Other observations

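Other classes of rows shared the TPM scale with the structural RNAs. Replication-dependent histone genes, which make unpolyadenylated messages, went from 1.37 ± 0.0132% to 1.57 ± 0.0117% of TPM without overlap. In counts 45 of 65 tested histone genes passed higher and 7 lower, where 19.2% of all rows tested passed in each direction. The highest were HIST1H1A at 2.27 (DESeq2 adjusted p of 3.41e-74), HIST1H2AD at 0.81 (adjusted p of 0.00164) and HIST1H2AK at 0.79 (adjusted p of 6.19e-52), and the lowest HIST2H3PS2 at -2.09 (adjusted p of 7.56e-06), HIST2H2AA3 at -1.24 (adjusted p of 4.08e-05) and HIST2H4A at -0.38 (adjusted p of 3.71e-37). Ribosomal RNA rows went from 3.15 ± 0.0577% to 3.77 ± 0.0998% of TPM.

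Ribosomal protein genes went down as a share of TPM, from 6.67 ± 0.0358% to 6.21 ± 0.0711%, and up slightly as a share of counts, from 3.73 ± 0.0057% to 3.77 ± 0.0119%, with no overlap on either scale. In counts 42 of 77 passed higher and 19 lower, beside the background of 19.2% of all rows tested in each direction. RPL29, RPL15 and RPL32 were highest (0.49, 0.41 and 0.37) and RPL22, RPL17 and RPS24 lowest (-0.47, -0.24 and -0.23). Of 16 mitochondrial rows tested 11 passed higher and 1 lower in counts, beside the same background. MT-ND5 was at 0.40, MT-ND1 at 0.32, MT-ND2 at 0.26 and MT-ND6, encoded on the other strand, at -0.25. The share of TPM held by the mitochondrial rows was lower in T-MGM while their share of counts was higher (10.8 ± 0.121% and 11.8 ± 0.143%).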
